A study of Homo sapiens with 6 samples.

Results

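The 34 genes described here encode the machinery that stores neurotransmitter in vesicles and releases it, and were examined for peaks of 3 transcription factors in cells of SK-N-BE(2), a long-established line from a human neuroblastoma. The members were taken from a list of gene symbols, all 34 of which matched a RefSeq gene, out of 19974 protein-coding genes on chromosomes 1 to 22 and X. They comprise 13 synaptotagmins, 4 SNARE proteins, 5 SNARE regulators or priming factors, 4 scaffolds of the active zone and 8 proteins of the vesicle membrane or surface. Occupancy was mapped by CUT&Tag, in which an antibody brings a transposase to a chromatin protein so that the nearby DNA is cut and tagged. The groups were HAND2 with 2 libraries, MEIS2 with 2 libraries and TCF4 with 1 library, all in SK-N-BE(2) cells, and the IgG control was not analysed here. No label names a treatment or a transgene, and nothing says whether the replicates are separate cultures. Differences between replicates may therefore be technical.

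In a nerve terminal, vesicles filled with transmitter dock at the active zone and are primed there by factors that help the SNARE proteins zip together. Calcium that enters during an action potential binds synaptotagmins, complexins yield, and the vesicle membrane fuses with the plasma membrane. Neuroblastoma arises from the sympathetic lineage, whose neurons and chromaffin cells use the same machinery to release noradrenaline. HAND2 belongs to the basic helix-loop-helix (bHLH) class and acts in that lineage, TCF4 is an E protein that pairs with such factors on the E-box sequence CANNTG, and MEIS2 is a homeodomain factor. Peak lists record where a factor was found and hold no measure of the expression of these genes.

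Peaks numbered 30410 and 33484 in the HAND2 lists (replicate 1, then 2), 9595 and 13871 in the MEIS2 lists and 30704 in the TCF4 list. The pile-up of fragments at a summit had a median of 34 and 41 in HAND2, 22 and 13 in MEIS2 and 60 in TCF4. The fold given below is the authors' value, the summit pile-up over its local background with 1 added to each, and it ranks peaks within a list only. A range in brackets is the exact 95% Poisson interval that the pile-up gives for a fold, with its background taken as known, and covers counting error only. MEIS2 replicate 2 stood apart: all of its 13876 peak identifiers contain the word Flag, which occurs in 0 identifiers of the other 4 lists. Its sample is labelled with the same MEIS2 antibody as replicate 1, and only 16.8% of its peaks overlapped a peak of MEIS2 replicate 1 over the whole list. Some results that rest on it, such as the count of genes with end peaks in every library, are therefore also given without it. Totals of summits over all libraries include it unless stated.

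Promoter sequences of 7 members are shown because they carry the contrasts described below: the strongest HAND2 signal over a listed start (SYN2), a start with peaks of all 3 factors (SYT1), a start with 2 E-boxes under a TCF4 peak (SYT11), the strongest TCF4 signal over a listed start (BSN), the strongest MEIS2 signal over a start (RAB3A), a start inside a long gene (SV2C), and a gene without any peak within 50 kb (SYT4). Each runs 5′ to 3′ from 250 bases before to 50 bases after the start in RefSeq, build GRCh38.p14, and capitals mark E-boxes (CANNTG). The SYN2 promoter lies at chr3:12004138-12004437 on the plus strand, SYT1 at chr12:78864524-78864823 (plus), SYT11 at chr1:155859317-155859616 (plus), BSN at chr3:49554227-49554526 (plus), RAB3A at chr19:18203993-18204292 (minus), SV2C at chr5:76083133-76083432 (plus) and SYT4 at chr18:43277441-43277740 (minus).
SYN2: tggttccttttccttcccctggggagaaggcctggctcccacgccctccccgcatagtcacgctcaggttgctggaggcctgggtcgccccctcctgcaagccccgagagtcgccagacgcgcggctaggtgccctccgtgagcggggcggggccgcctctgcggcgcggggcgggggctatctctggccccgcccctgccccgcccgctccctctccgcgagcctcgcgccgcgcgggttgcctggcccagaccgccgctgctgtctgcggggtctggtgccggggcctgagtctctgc
SYT1: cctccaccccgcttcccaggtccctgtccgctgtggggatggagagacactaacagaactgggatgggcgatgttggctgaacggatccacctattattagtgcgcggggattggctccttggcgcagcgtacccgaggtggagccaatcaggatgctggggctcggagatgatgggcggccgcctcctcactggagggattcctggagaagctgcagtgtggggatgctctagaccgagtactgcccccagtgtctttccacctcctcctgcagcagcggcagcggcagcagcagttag
SYT11: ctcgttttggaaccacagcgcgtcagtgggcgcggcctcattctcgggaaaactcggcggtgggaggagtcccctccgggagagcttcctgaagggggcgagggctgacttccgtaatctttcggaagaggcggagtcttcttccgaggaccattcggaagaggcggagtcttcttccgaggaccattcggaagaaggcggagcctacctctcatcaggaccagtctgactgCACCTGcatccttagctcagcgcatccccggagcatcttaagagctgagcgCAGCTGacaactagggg
BSN: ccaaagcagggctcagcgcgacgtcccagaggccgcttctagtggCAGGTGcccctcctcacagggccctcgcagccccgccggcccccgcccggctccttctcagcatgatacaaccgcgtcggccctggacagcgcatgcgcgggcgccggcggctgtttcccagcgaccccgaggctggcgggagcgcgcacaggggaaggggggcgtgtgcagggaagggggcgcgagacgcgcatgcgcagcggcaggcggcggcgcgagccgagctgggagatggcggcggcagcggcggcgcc
RAB3A: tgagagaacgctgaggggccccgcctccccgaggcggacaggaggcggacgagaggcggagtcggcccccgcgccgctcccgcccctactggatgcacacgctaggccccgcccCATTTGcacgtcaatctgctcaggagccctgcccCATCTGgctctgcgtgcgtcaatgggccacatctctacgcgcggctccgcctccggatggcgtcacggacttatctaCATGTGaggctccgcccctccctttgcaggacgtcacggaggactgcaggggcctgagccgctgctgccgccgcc
SV2C: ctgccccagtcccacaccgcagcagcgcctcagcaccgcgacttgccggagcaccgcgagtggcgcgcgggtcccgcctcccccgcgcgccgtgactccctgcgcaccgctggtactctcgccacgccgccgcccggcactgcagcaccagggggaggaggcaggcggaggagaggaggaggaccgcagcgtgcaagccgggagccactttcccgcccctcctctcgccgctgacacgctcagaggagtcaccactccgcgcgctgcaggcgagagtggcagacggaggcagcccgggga
SYT4: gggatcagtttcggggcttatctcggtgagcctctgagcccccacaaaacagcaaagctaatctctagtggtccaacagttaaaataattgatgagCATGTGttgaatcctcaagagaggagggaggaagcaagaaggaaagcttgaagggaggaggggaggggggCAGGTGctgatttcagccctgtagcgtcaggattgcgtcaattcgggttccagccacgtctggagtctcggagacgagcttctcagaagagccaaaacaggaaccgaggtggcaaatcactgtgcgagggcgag

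Peaks and E-boxes did not go together in every one of these promoters. SYN2, SV2C and SYT1 were overlapped by peaks of 3, 3 and 4 libraries and hold 0 E-boxes in these 300 bases. SYT4 was overlapped by none and holds 2 E-boxes, which start 154 and 84 bases before its start. SYT11 holds CACCTG 18 bases before the start and CAGCTG 33 bases after it, and BSN holds CAGGTG 205 bases before. RAB3A holds 3, among them CATCTG, 102 bases before the start. A match is a string of letters in this window and not a measured site. Overlap counts any part of a peak, so a summit may lie outside the window. At SV2C the summits of HAND2 replicate 2 (76084823) and TCF4 (76084818) lay beyond the window's end (76083432). At SYT11 the HAND2 and TCF4 summits lay 781 to 850 bp after the start. At SYN2 the summits of HAND2 replicate 1 and TCF4 were also outside and that of HAND2 replicate 2 inside. At SYT1 those of HAND2 replicate 2 and TCF4 were inside and the rest outside.

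RefSeq listed 37 promoters for 25 of the 34 genes, and the other 9 (CPLX1, CADPS2, RIMS2, SYT13, SYT7, SYT12, SYT17, SNAP25 and SYN3) were not in the table. Some of these genes have several listed promoters, so the shares that follow count promoters and not genes. An E-box stood in 22 of the 37 promoters (59.5%), against 65.1% of all 22156 promoters of the same length. CATCTG or CAGATG was in 16.2% of the members' promoters and 12.2% of all, CAGCTG in 13.5% and 18.0%, and CAGGTG or CACCTG in 21.6% and 20.0%. All of these are also E-boxes. The 6-letter string TGACAG, or CTGTCA on the other strand, was in 2 of the 37 promoters (5.41%) and in 14.8% of all. The members' promoters were richer in G and C, with a median GC content of 68.3% against 62.3% for all promoters. A TCF4 peak overlapped 21 of the 37 promoters, against 48.5% of all promoters, and 11 of these 21 held an E-box, as did 11 of the 16 without a TCF4 peak. Across all promoters the shares with an E-box were 57.4% of those under a TCF4 peak and 72.4% of the rest.

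A gene was counted as occupied in a library when a peak overlapped the 1 kb around either of its ends. TCF4 peaks reached 22 of the 34 genes, against 53.9% of all protein-coding genes (members' share 64.7%, exact binomial 95% interval 46.5 to 80.3%). HAND2 replicate 1 reached 8 genes against 20.6% of all genes (23.5%, 10.7 to 41.2%), and HAND2 replicate 2 reached 13 against 27.8% (38.2%, 22.2 to 56.4%). MEIS2 replicate 1 reached 7 against 11.5% of all genes (20.6%, 8.70 to 37.9%), and MEIS2 replicate 2 reached 2 against 2.18% (5.88%, 0.720 to 19.7%). In each library the share among all protein-coding genes lay inside the members' interval, so the counts alone do not set the 34 genes apart.

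HAND2 peaks of both replicates met at the ends of 6 genes, CPLX2, SNAP25, SYN2, SYT1, SYT11 and SYT2, against 19.1% of all genes (17.6% of the members). Such a span, with a peak of both replicates that overlap by at least 1 bp, is called a HAND2 region below. All 6 genes also had a TCF4 end peak, so the pairing was at 17.6% of the members, against 17.8% of all genes. Among all 3815 genes with a HAND2 region at an end, 3549 had a TCF4 end peak too. A peak of either HAND2 replicate was at 13 genes, against 29.6% of all. MEIS2 regions, called by the same rule, reached an end of 1 gene, SYT2, against 0.946% of all. The replicate 2 peak in that region stopped short of the 1 kb window.

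Every member with an end peak of any library had a TCF4 end peak, as did 10769 of the 11448 protein-coding genes with an end peak of any library. In any of the 5 libraries 22 members were occupied, against 57.3% of all genes. At 8 of them TCF4 was the only factor found at an end, against 24.8% of all genes: the SNARE proteins VAMP1 and VAMP2, the complexin CPLX1, the scaffold RIMS2, the synaptotagmins SYT7 and SYT17, the synapsin SYN1 and the vesicle protein SYP. End peaks of all 5 libraries were found at SNAP25 and SYT1, 2 genes against 0.701% of all. Without MEIS2 replicate 2 the genes occupied in the remaining 4 libraries were 5, adding BSN, SYT11 and SYT2, against 7.32% of all. TCF4 has 1 library, so its counts have no replicate check.

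**Figure D1:**
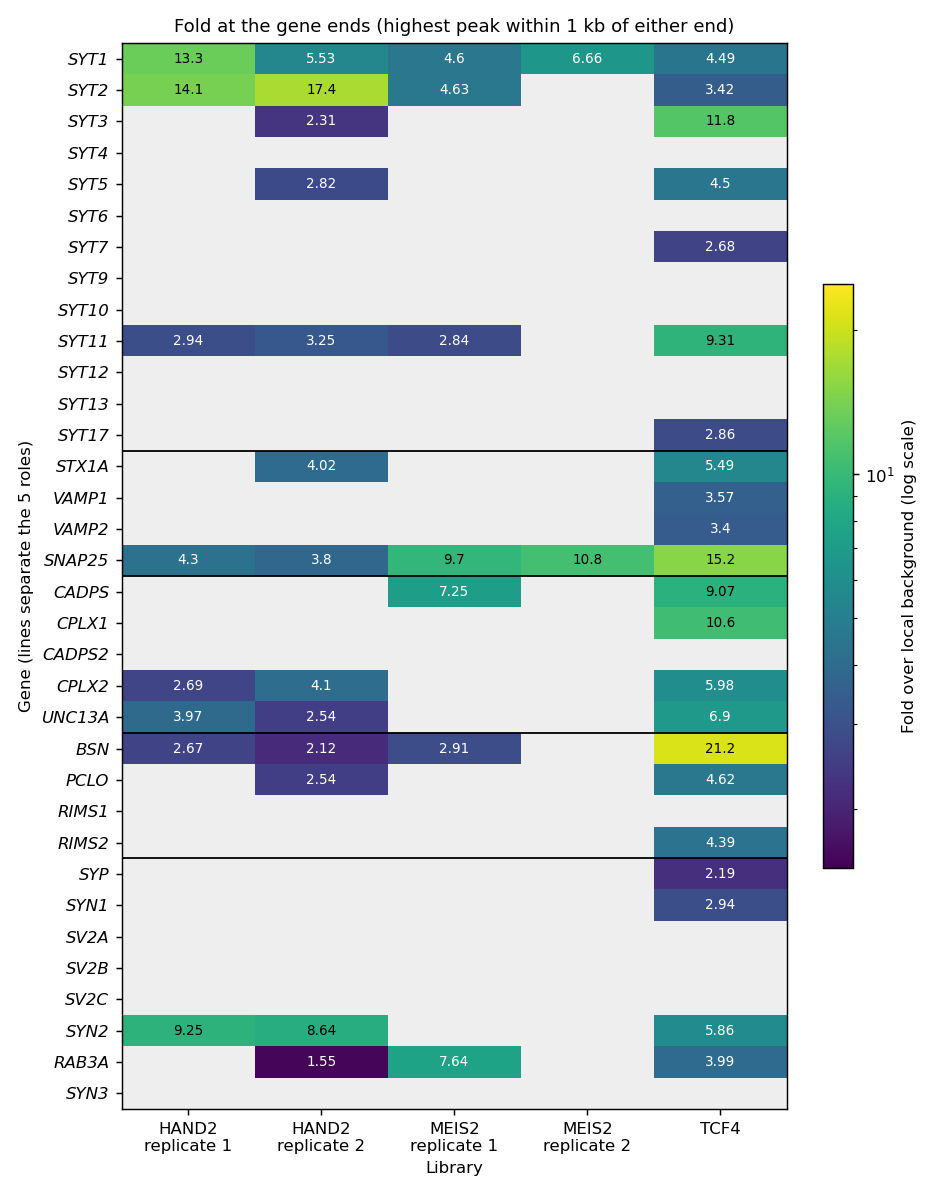
Fold of the strongest peak within 1 kb of either gene end, for each of the 34 genes (rows, grouped by role) and each library (columns), on a log colour scale; grey cells have no peak there. SNAP25 and SYT1 have a value in all 5 columns, and 12 genes have none in any column.

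By role, TCF4 was at 7 of 13 synaptotagmins, 4 of 4 SNARE proteins, 4 of 5 regulators or priming factors, 3 of 4 active-zone scaffolds and 4 of 8 vesicle proteins. HAND2 regions were at 3 of 13 synaptotagmins, 1 of 4 SNARE proteins, 1 of 5 regulators, 0 of 4 scaffolds and 1 of 8 vesicle proteins. The SNARE proteins were thus the role in which every member had a TCF4 end peak, but with 4 genes the 95% interval of that share begins at 39.8%. In every role the interval of the TCF4 share held the 53.9% of all genes. The interval of the HAND2 region share likewise held the 19.1% of all genes, so these counts set no role apart.

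Among the synaptotagmins, the calcium sensors and their relatives, 3 genes had end peaks of 4 or more libraries. SYT1, the fast calcium sensor of transmitter release (chr12:78863982-79452008, plus strand), had peaks at both ends. At its 5′ end the folds were 2.99 and 3.79 in HAND2 replicates 1 and 2, 4.60 in MEIS2 replicate 1 and 4.49 in TCF4, with no peak of MEIS2 replicate 2. At its 3′ end they were 13.3 (9.53 to 18.2) and 5.53 (3.92 to 7.60) in HAND2, 6.66 in MEIS2 replicate 2 and 3.44 in TCF4, with no peak of MEIS2 replicate 1. The MEIS2 replicates therefore met SYT1 at opposite ends, 1 library each.

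SYT2 (chr1:202590596-202710454, minus strand), a fast calcium sensor closely related to SYT1, had the highest HAND2 end folds of all members. They were 14.1 (12.1 to 16.3) and 17.4 (15.3 to 19.8), at summits 1269 and 1279 bp beyond its 3′ end. MEIS2 replicate 1 had a fold of 4.63 there, and a MEIS2 replicate 2 peak of fold 5.95 overlapped that peak but stopped short of the 1 kb window. The summits of this site lie inside the neighbouring gene PPP1R12B, so the site cannot be credited to SYT2 alone. A TCF4 peak of fold 4.01 lay at the same site outside the window, while TCF4 peaks inside the windows had folds of 2.58 at the 3′ end and 3.42 at the 5′ end.

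SYT11, a synaptotagmin that does not bind calcium (chr1:155859567-155885199, plus strand), had folds of 2.94 and 3.25 in HAND2 replicates 1 and 2, 2.84 in MEIS2 replicate 1 and 9.31 (8.17 to 10.6) in TCF4, all at its 5′ end. Only the TCF4 value stood high in its own list, above 80.9% of TCF4 peaks, whereas the HAND2 values stood above 12.5% and 22.6% of theirs. All 4 peaks also reached an end of the neighbouring gene GON4L. SYT3, SYT5, SYT7 and SYT17 had end peaks of 1 or 2 libraries, with highest TCF4 end folds of 2.68 to 11.8 and, for SYT3 and SYT5, folds of 2.31 and 2.82 in HAND2 replicate 2.

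The other 6 synaptotagmins, SYT4, SYT6, SYT9, SYT10, SYT12 and SYT13, had no peak within 1 kb of an end of the gene span. RefSeq lists a start of SYT9 inside its span at position 7251904 of chromosome 11, and a TCF4 peak of fold 4.25 overlapped that promoter. SYT4 and SYT10 had no summit in the gene or within 50 kb in any library, and SYT13 had 1 in each HAND2 replicate, at different places. SYT12 had 20 summits, of which 6 and 8 were of HAND2 replicates 1 and 2.

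All 4 SNARE proteins, the subunits of the fusion complex, had a TCF4 end peak. The lower-coordinate end of SNAP25, a plasma membrane SNARE (chr20:10218830-10307418), had a HAND2 fold of 4.30 (3.29 to 5.53) in replicate 1 and 3.80 (2.90 to 4.89) in replicate 2. The fold there was 9.70 (7.35 to 12.6) in MEIS2 replicate 1 and 15.2 (13.2 to 17.4) in TCF4. The end peak of MEIS2 replicate 2 was at the other end, with a fold of 10.8 from a pile-up of 18. A further MEIS2 replicate 2 peak lay 2027 bp beyond that end with a fold of 24.3 (18.1 to 31.8). As at SYT1, the MEIS2 replicates did not share an end.

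STX1A, the partner of SNAP25 in the plasma membrane, had folds of 5.49 in TCF4 and 4.02 in HAND2 replicate 2 at its 5′ end and of 3.10 in TCF4 at its 3′ end. Its strongest peak was inside the gene, 5122 bp from the lower end, where TCF4 reached 36.5 (33.6 to 39.6), above 99.0% of the TCF4 list. HAND2 peaks of fold 3.46 and 4.07 lay at the same place. VAMP1 and VAMP2, the vesicle SNAREs, had end folds of 3.57 and 3.40 in TCF4 and none in the other libraries. The VAMP1 peak also reached an end of its neighbour TAPBPL.

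Of the regulators, CPLX2, a complexin that clamps the SNARE complex (chr5:175796533-175884021, plus strand), had 5′ end folds of 2.69 (1.95 to 3.63) and 4.10 (3.20 to 5.18) in HAND2 and 5.98 in TCF4. MEIS2 had no end peak there in either replicate. UNC13A, the priming factor Munc13-1 (chr19:17601336-17688354, minus strand), had 5′ end folds of 3.97 in HAND2 replicate 1, 2.54 in replicate 2 and 6.90 in TCF4. The peak of replicate 2 had its summit 1332 bp from the end, inside the gene, and reached only the edge of the 1 kb window. It did not overlap that of replicate 1, so no HAND2 region was called. CPLX1, the other complexin, had a TCF4 end fold of 10.6, and CADPS, a priming factor of dense-core vesicles, had 9.07 in TCF4 and 7.25 in MEIS2 replicate 1. A HAND2 region with folds of 3.89 and 4.10 overlapped both of these CADPS peaks but stopped short of the 1 kb window. CADPS2, a relative of CADPS, had no summit within 50 kb.

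Of the active-zone scaffolds, BSN (Bassoon; chr3:49554477-49673130, plus strand) had the highest TCF4 end fold of all members, 21.2 (19.8 to 22.7) at its 3′ end, and 13.4 (11.5 to 15.6) at its 5′ end. The 3′ peak, with a pile-up of 818, also reached an end of the neighbouring gene APEH. HAND2 replicate 1 had a fold of 2.67 at the 5′ end and HAND2 replicate 2 a fold of 2.12 at the 3′ end, so the replicates shared neither end. MEIS2 replicate 1 had 2.91 at the 3′ end. PCLO (Piccolo) and RIMS2 had TCF4 end folds of 4.62 and 4.39, and PCLO also 2.54 in HAND2 replicate 2. The strongest peak near PCLO lay 39220 bp outside the gene and was found in HAND2 replicate 1 alone, with a fold of 15.3 (10.9 to 20.8) from a pile-up of 38. RIMS1 had no summit in any library.

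Of the vesicle proteins, SYN2, a synapsin that tethers vesicles in the reserve pool (chr3:12004388-12192032, plus strand), had 5′ end folds of 9.25 (6.89 to 12.2) and 8.64 (6.69 to 11.0) in HAND2 and 5.86 (4.17 to 8.02) in TCF4. These were the highest HAND2 folds at the 5′ end of any member with a strand, and the HAND2 replicates lay inside each other's interval. RAB3A, a small GTPase of the vesicle surface (chr19:18196784-18204042, minus strand), had 5′ end folds of 7.64 (6.441 to 9.002) in MEIS2 replicate 1, 3.99 in TCF4 and 1.55 in HAND2 replicate 2. The HAND2 value stood above only 0.108% of its list. SYN1 and SYP had TCF4 end folds of 2.94 and 2.19, and the SV2 proteins, transporter-like glycoproteins of the vesicle, and SYN3 had no end peak.

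SV2C shows what the gene span can miss. The start that RefSeq lists for it, position 76083383 of chromosome 5, is inside the span, and peaks of fold 5.45 and 5.75 in HAND2 and 9.32 in TCF4 overlapped its promoter. Counting listed starts only, TCF4 was at the starts of 19 genes, against 22 by gene ends, since SV2C and SYT9 were gained and the genes without a listed start were lost.

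Among the 25 genes with a strand, 13 had a TCF4 peak at the 5′ end only, 4 at both ends (BSN, STX1A, SYT1 and SYT2) and 0 at the 3′ end only. Across all 15813 genes with a strand the numbers were 6784, 1583 and 364. HAND2 replicates 1 and 2 had 5 and 9 genes with a peak at the 5′ end only, 1 and 2 at the 3′ end only and 1 each at both. Across all genes with a strand these numbers were 2560, 476 and 347 in replicate 1, and 3474, 496 and 547 in replicate 2. MEIS2 replicate 1 had 4 at the 5′ end and 2 at the 3′ end, and MEIS2 replicate 2 had 1, at the 3′ end of SYT1. All genes had 1528 at the 5′ end only, 198 at the 3′ end only and 147 at both in MEIS2 replicate 1, and 184, 121 and 38 in MEIS2 replicate 2.

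The median fold at the end of an occupied member was 4.13 and 3.25 in HAND2 replicates 1 and 2, 4.63 in MEIS2 replicate 1 and 4.56 in TCF4. All occupied protein-coding genes had medians of 3.47, 3.38, 4.58 and 5.33 in the same order. The 2 values of MEIS2 replicate 2, 6.66 and 10.8, rested on pile-ups of 13 and 18. The members' median lay above that of all occupied genes in HAND2 replicate 1 and below it in TCF4 and HAND2 replicate 2, and these differences were not tested.

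**Figure D2:**
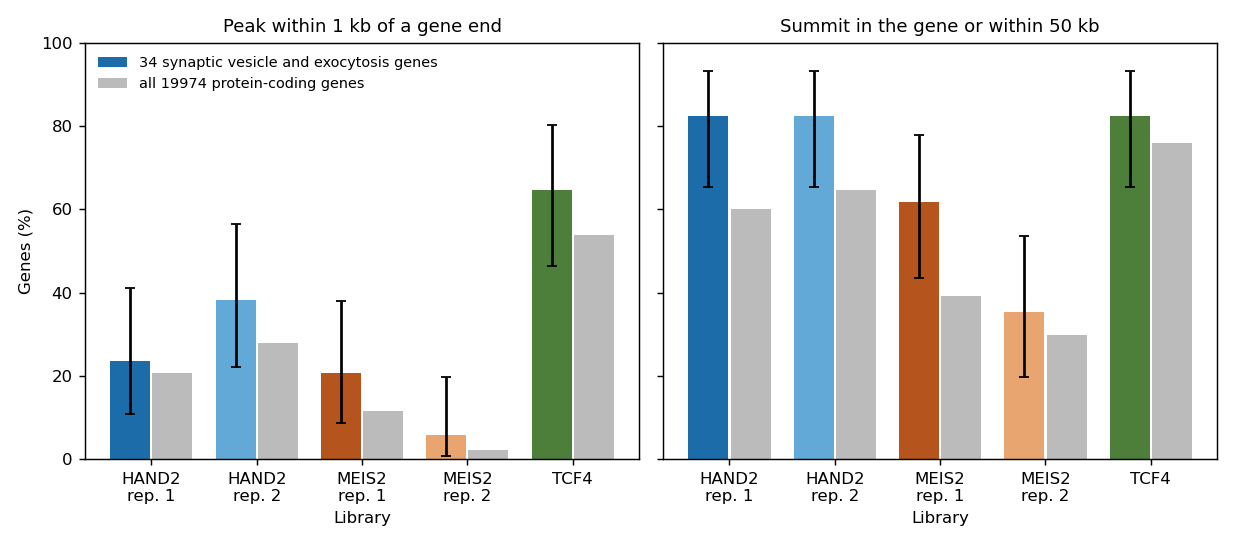
Percent of the 34 genes (coloured bars, with exact binomial 95% intervals) and of all 19974 protein-coding genes (grey bars) with a peak within 1 kb of a gene end (left) and with a summit in the gene or within 50 kb (right), by library. At gene ends every grey bar lies inside the interval of its neighbour, while on the right the grey bars of both HAND2 replicates and MEIS2 replicate 1 lie below it.

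Further from the ends, a summit in the gene or within 50 kb was found at 28 of the 34 genes in HAND2 replicate 1, against 60.2% of all genes, at 28 in HAND2 replicate 2, against 64.7%, and at 28 in TCF4, against 76%. MEIS2 replicate 1 had a summit at 21, against 39.3%, and MEIS2 replicate 2 at 12, against 29.8%. HAND2 regions were near 26 genes, against 55.8% of all, and MEIS2 regions near 8, against 9.39%. The members are longer than most genes, with a median length of 80.8 kb against 24.2 kb. The part of gene length in these shares was not tested.

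Per 100 kb of gene and flank, the pooled number of summits was 1.63 at the members and 1.55 at all genes in HAND2 replicate 1, and 1.88 at both in HAND2 replicate 2. It was 0.493 and 0.547 in MEIS2 replicate 1, 0.567 and 0.440 in MEIS2 replicate 2, and 1.83 and 2.44 in TCF4. The median over genes of the same density gave another order. It was 1.78 at the members and 0.797 at all genes in HAND2 replicate 1, 2.16 and 0.903 in HAND2 replicate 2, 0.347 and 0 in MEIS2 replicate 1, 0 at both in MEIS2 replicate 2, and 2.14 and 1.37 in TCF4. Pooled, the HAND2 densities at the members were thus close to those of all genes and the TCF4 density was lower, while by the median gene both factors were higher at the members, without a test of either. Within the 34 genes, Spearman's rho between gene length and the number of summits was 0.14 and -0.0481 in HAND2, -0.0952 and 0.477 in MEIS2 and -0.387 in TCF4. Between gene length and summits per 100 kb, which has the length in its denominator, rho was -0.598 in TCF4, -0.315 and -0.427 in HAND2, -0.343 in MEIS2 replicate 1 and 0.327 in MEIS2 replicate 2. These describe 34 genes that share the libraries.

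**Figure D3:**
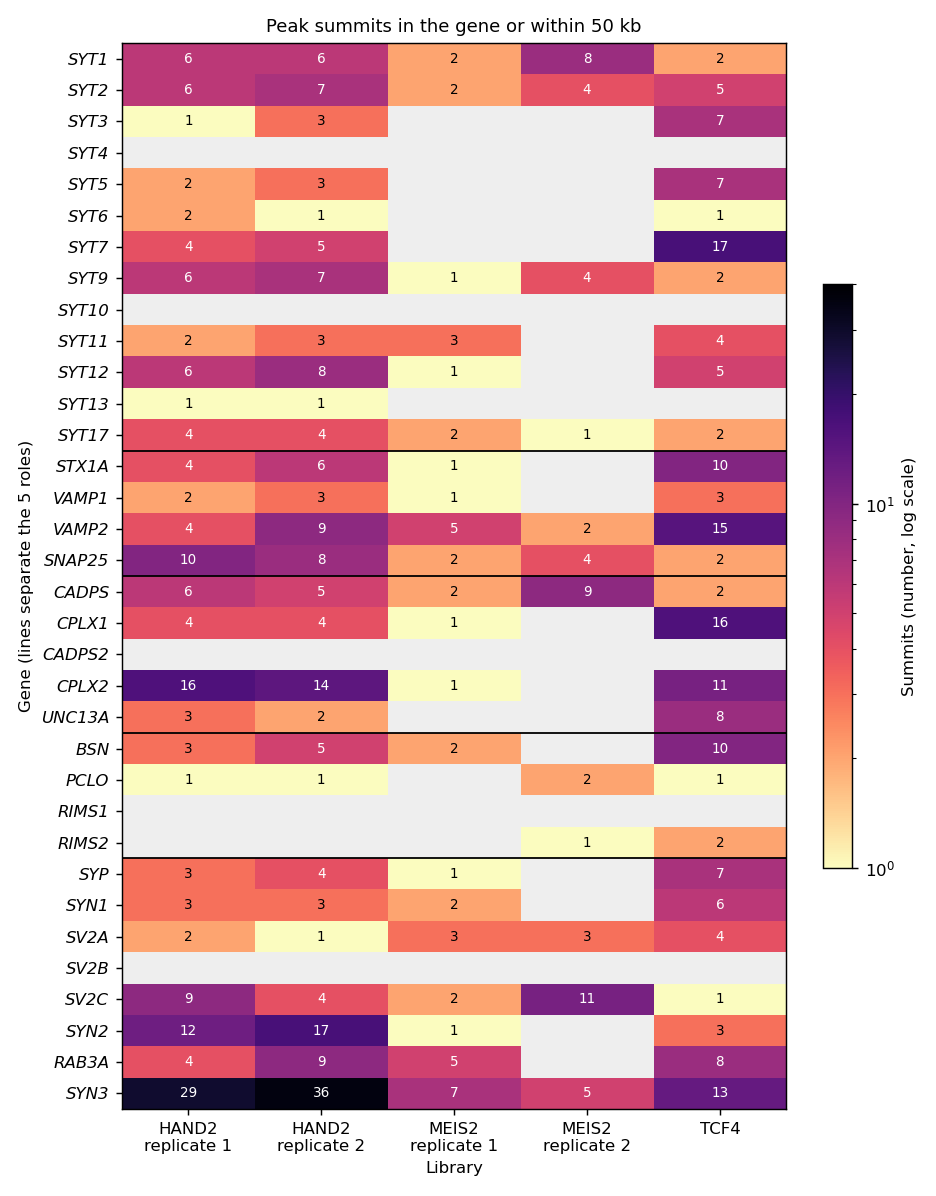
Number of peak summits in each of the 34 genes or within 50 kb of it (rows, grouped by role), by library (columns), on a log colour scale; grey cells hold 0. SYN3 has the most in both HAND2 columns (29 and 36), SYT7 the most in TCF4 (17), and 5 genes are grey in every column.

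The 34 genes had 609 summits in all 5 libraries, 327 inside a member and 282 in its flanks. A further gene lay over 148 of them, and the member had the nearest gene end for 350. No library had a summit at CADPS2, RIMS1, SYT10, SYT4 or SV2B. At the 7 other genes without an end peak, all peaks lay away from the ends of the span. Among these, SV2A had 13 summits, none of them inside the gene, while all 4 of SYT6 were inside it.

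SYN3, a synapsin, had 90 summits, 29 and 36 in HAND2 replicates 1 and 2, 7 and 5 in MEIS2 replicates 1 and 2 and 13 in TCF4. The gene spans 551 kb and holds TIMP3, the gene of a metalloproteinase inhibitor, within it. Its strongest TCF4 peak, fold 36.8 (34.5 to 39.3), was the highest of TCF4 near any member and lay 18040 bp from the nearest end of TIMP3. The strongest MEIS2 replicate 1 peak near any member, at 11.8, was in the same place. HAND2 folds there were 18.6 and 24.3, and which of these genes the peaks act on was not tested.

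CPLX2 had 42 summits, 16 and 14 in HAND2, 1 in MEIS2 replicate 1, 0 in MEIS2 replicate 2 and 11 in TCF4. Its 12 HAND2 regions included the strongest HAND2 replicate 2 peak near any member, with folds of 25.9 (22.5 to 29.7) and 32.9 (29.1 to 37.0) in replicates 1 and 2, 65139 bp inside the gene from its 5′ end. The same place had folds of 6.90 in MEIS2 replicate 1 and 8.69 in TCF4. TCF4 was highest in CPLX2 at another place, 40742 bp from the 5′ end, with 11.9 beside 12.4 and 13.4 in HAND2. TCF4 peaks overlapped 9 of the 12 HAND2 regions, against 53.6% of all HAND2 regions.

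SYN2 had 33 summits, 12 and 17 in HAND2, 1 in MEIS2 replicate 1, 0 in MEIS2 replicate 2 and 3 in TCF4. The strongest HAND2 replicate 1 peak near any member lay 49680 bp before its 5′ end, with folds of 30.6 (25.3 to 36.7) and 29.2 (24.5 to 34.5) in replicates 1 and 2. A second site 9191 bp before the 5′ end had 22.3 and 28.7 in HAND2, 10.2 in TCF4 and 5.27 in MEIS2 replicate 1. TCF4 peaks overlapped 3 of the 10 HAND2 regions of SYN2, against 53.6% of all HAND2 regions. No other library overlapped 6 of the 10, against 31.9% of all. The difference from CPLX2 rests on few regions and was not tested. The gene TIMP4 lies within SYN2. The strongest TCF4 peak of SYN2, fold 11.7, was 3833 bp from an end of TIMP4. The HAND2 region there, and another inside TIMP4, also had TIMP4 as the nearest gene end. The site 49680 bp away is close to the 50 kb limit.

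VAMP2 had 35 summits, 4 and 9 in HAND2, 5 and 2 in MEIS2 and 15 in TCF4, none of them inside the gene, which is 3.80 kb long. Its end was the nearest gene end for 1 summit of each HAND2 replicate and 2 of TCF4, so another gene's end was nearer for most of them. SV2C had 27, 9 and 4 in HAND2, 2 and 11 in MEIS2 and 1 in TCF4, all of them inside the gene. The 11 of MEIS2 replicate 2 had folds of 4.28 to 11.3, and without that library SV2C had 16 summits, fewer than RAB3A and SYT7 with 26 each.

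**Figure D4:**
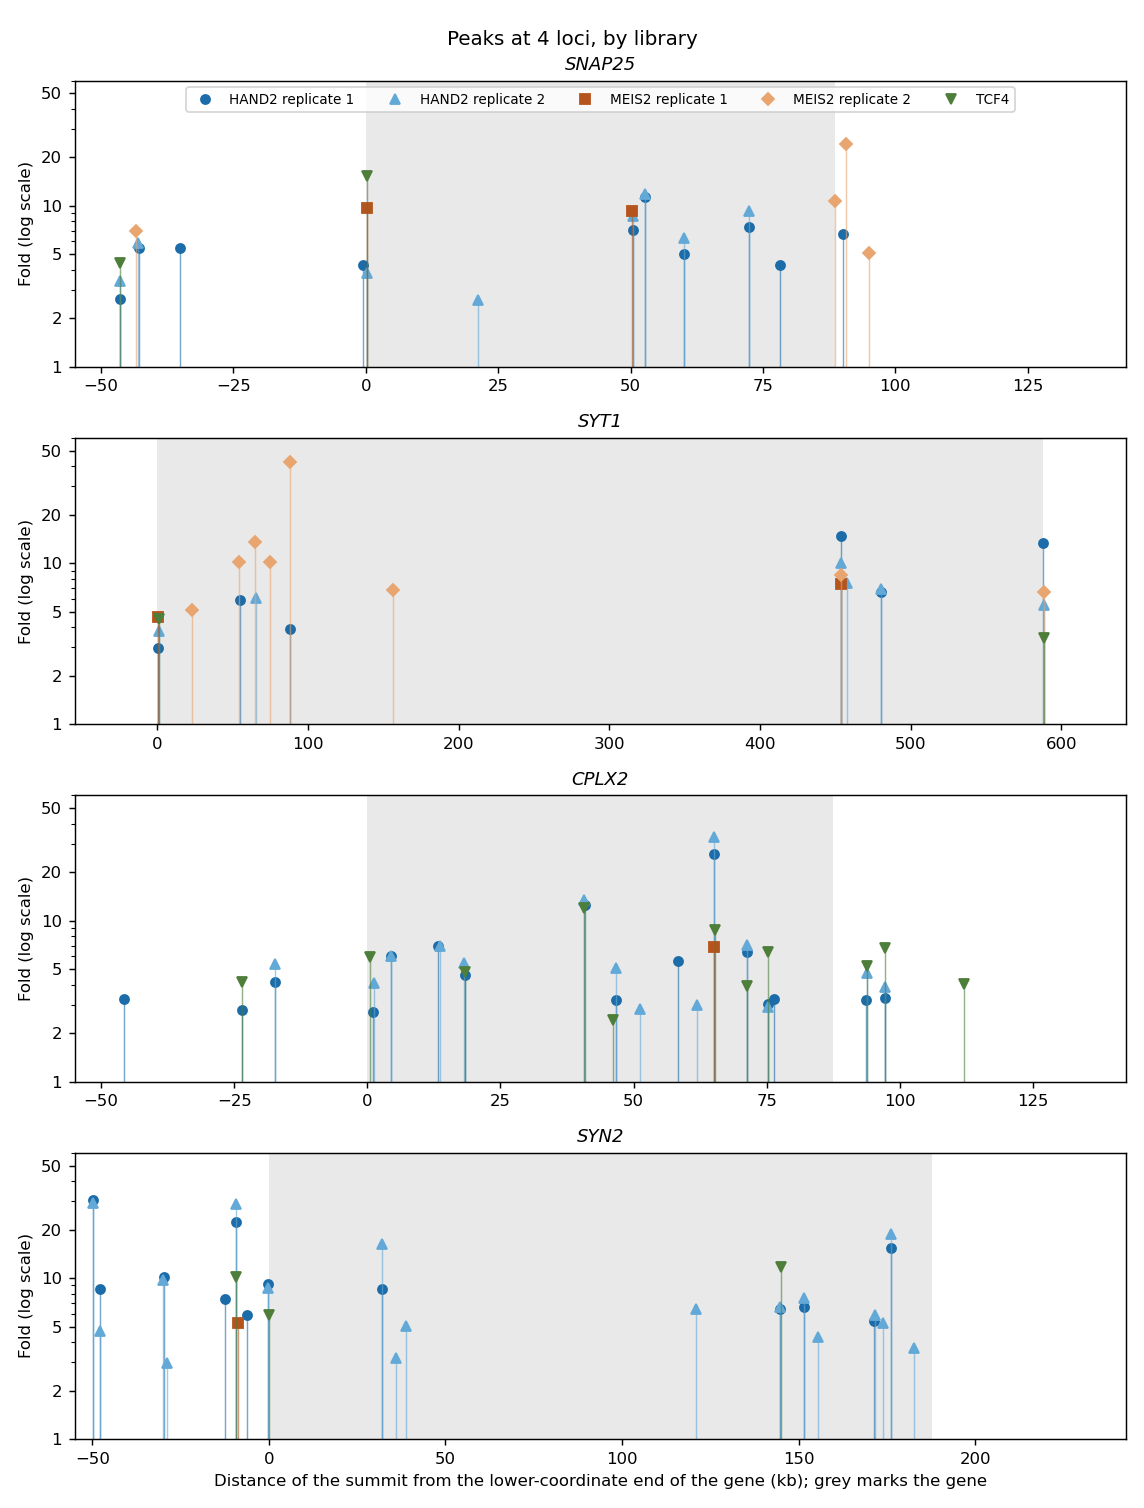
Position of each peak summit (distance from the lower-coordinate end of the gene, kb) against its fold (log axis) at SNAP25, SYT1, CPLX2 and SYN2, by library; grey marks the gene. Peaks of both HAND2 replicates often stand together, while MEIS2 replicate 2 has its highest peak in SYT1, at 42.5, where the other libraries are low or absent.

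None of the 3 highest folds of each library near a member was at an end of that member. In MEIS2 replicate 2 they were at SYT1 (42.5, 33.5 to 53.2), beyond SNAP25 (24.3) and inside CADPS (13.8). The SYT1 peak lay 88097 bp inside the gene and was the peak of order 24 in its list by fold. Its pile-up was 74 over a background of 0.765, the median background of that list. HAND2 replicate 1 had a peak of fold 3.92 from a pile-up of 9 there, and HAND2 replicate 2, MEIS2 replicate 1 and TCF4 had none.

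In MEIS2 replicate 1 the highest folds were 11.8 at SYN3, 10.9 inside SYP and 10.7 inside BSN. At the BSN site, 55443 bp from the 5′ end, HAND2 had folds of 13.1 (10.3 to 16.4) and 17.6 (14.6 to 21.1), the strongest HAND2 peaks of that gene. In TCF4, after SYN3 and STX1A, the highest was 23.8 (22.4 to 25.2), 2708 bp beyond the lower end of CPLX1 and 401 bp from an end of LOC124900163. HAND2 replicate 1 had its highest values at SYN2, SYN3 (26.6) and CPLX2, and replicate 2 at CPLX2 and the 2 sites of SYN2.

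MEIS2 peaks of both replicates met at 9 places near 8 genes: SV2A (2 places), SYT2, CADPS, SV2C, SYT9, SYT1, VAMP2 and SYN3. The site inside SYT1, 134467 bp from its 3′ end, had folds of 7.38 and 8.46 in MEIS2 and 14.8 (12.1 to 17.8) and 10.1 (8.04 to 12.4) in HAND2, with no TCF4 peak. The CADPS site had 8.86 and 7.48 in MEIS2, 20.0 and 24.5 in HAND2 and 11.3 in TCF4. A peak of HAND2 replicate 1 overlapped all 9 places, and of HAND2 replicate 2 all but 1 at SV2A. Over the whole lists, HAND2 replicate 1 overlapped 80.8% of MEIS2 replicate 1 peaks and 33.8% of MEIS2 replicate 2 peaks. The share for all places where the MEIS2 replicates met was not counted, so whether the overlap is particular to these genes was not tested. The sites at SV2A and VAMP2 lay nearer to the ends of H2BC21, OTUD7B and BORCS6 than to the member.

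The 116 HAND2 regions near the members resembled HAND2 regions at large in the company they kept. TCF4 peaks overlapped 54.3% of them (44.8 to 63.6%), against 53.6% of all 23304 HAND2 regions. MEIS2 replicate 1 overlapped 30.2%, against 30.1%, MEIS2 replicate 2 11.2%, against 15.9%, and no other library 31.9%, against 31.9%. Each share for all regions lay inside the interval of the members' share.

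**Figure D5:**
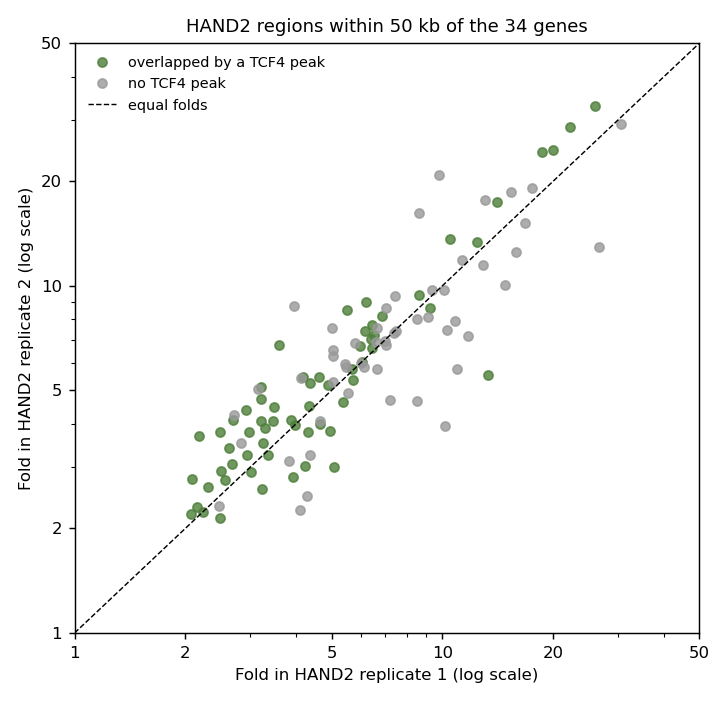
Fold in HAND2 replicate 2 against fold in HAND2 replicate 1 (log axes) for the 116 HAND2 regions in or within 50 kb of the 34 genes, coloured by overlap with a TCF4 peak; the dashed line marks equal folds. The points scatter around the line, and 5 lie more than 2-fold from it.

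The HAND2 replicates gave these regions similar folds. Spearman's rho over the 116 regions, which share 2 libraries, was 0.865, the median log2 ratio of replicate 2 over replicate 1 was 0.10, and 70 regions were higher in replicate 2. The ratio ranged from -1.36 to 1.15 on the log2 scale, and the 3′ end of SYT1 was among the 5 regions beyond 2-fold. These fold values cover only places with a peak of both replicates. A replicate 2 peak overlapped 76.1% of the HAND2 replicate 1 peaks near the members, against 78.5% over the whole list. In the other direction, a replicate 1 peak overlapped 65.9% of the 179 HAND2 replicate 2 peaks near the members, against 71.6% over the whole list. For MEIS2, 9 of 47 replicate 1 peaks near the members (19.1%) overlapped a replicate 2 peak, against 24.6% over the whole list. Of those 47 peaks, 76.6% overlapped a HAND2 replicate 1 peak, against 80.8% over the whole list. The same held for 40.7% of the 54 peaks of MEIS2 replicate 2, against 33.8% over its whole list.

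A list of 81 other presynaptic genes, among them syntaxins, Munc18 proteins, Rab effectors and endocytic factors, was counted by the same rule. TCF4 end peaks were at 49 of the 81 (60.5%), against 53.9% of all genes, and HAND2 regions at 12 (14.8%), against 19.1%. HAND2 peaks were at 14 (17.3%) in replicate 1, against 20.6% of all genes, and at 15 (18.5%) in replicate 2, against 27.8%. MEIS2 peaks were at 7 (8.64%) in replicate 1, against 11.5%, and at 0 in replicate 2, against 2.18%. Among the 12 were SYNJ1, the synaptojanin of vesicle recycling, and BIN1, an amphiphysin. The 34 genes had 64.7% in TCF4, 17.6% in HAND2 regions, 23.5% and 38.2% in HAND2 replicates 1 and 2, and 20.6% and 5.88% in MEIS2 replicates 1 and 2. All these shares were higher than those of the 81 genes, without a test of the differences.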

How the data were processed

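The analysis started from 5 deposited peak lists, 1 per CUT&Tag library of SK-N-BE(2) cells, with groups taken from the antibody in each sample's labels. Peaks were called per library. The submitters' processing notes name bcl2fastq 2.17, Bowtie2, MACS3 3.0.0a6 and the hg38 build. Options of these tools and any removal of duplicates or regions were not given in the sources used here. Each deposited list holds an integer score, which was not used, the authors' fold (a ratio of summit pile-up to local background, each with 1 added) and −log10 p and −log10 q values, the lowest q value being 2.00 to 2.02 on that scale. The extra column that the authors deposited in 3 of the lists was not used. Only peaks on chromosomes 1 to 22 and X were kept, which dropped 0 to 7 per list.

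Genes were placed by a RefSeq table of GRCh38.p14 that gives no strand, exons or transcripts, so no exon, intron or UTR is named. Strand and start sites came from the RefSeq promoter table. HAND2 and MEIS2 regions are merged spans that hold a peak of both replicates (overlap of at least 1 bp). Positions are 1-based. The lists hold no read totals. The whole pile-up of each peak was recovered from its fold and p within a relative tolerance of 5e-05, for 100% of peaks in every list, after a test on simulated data. No test between groups was made, since each list was called on its own and holds no value where no peak was called. Counts are given beside the share of all protein-coding genes with exact binomial intervals, which treat genes as independent. Python 3.11.15 with scipy 1.17.1 was used.

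The 34 genes, their roles and the list of 81 other genes were chosen with earlier results of these data known. Genes with an end peak in 3 or more libraries, the 5 with the most summits and the 3 highest folds of each library near a member are given in full, and any other gene named with values was chosen after its values were seen. Alternatives tried were other windows and distances, summits in place of overlap, stricter peaks, the strongest 5000 peaks, gene starts only, another overlap rule and leaving out each replicate.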

Additional observations from a re-analysis of the deposited data

How the results depend on the processing

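Of 54 recomputed counts, 35 stayed within 1.5 times the reported count and 19 did not. Keeping the 5000 peaks of highest fold in each library left 1 member with a HAND2 region at an end, 3 with MEIS2 replicate 1, 1 with MEIS2 replicate 2 and 4 with TCF4. It left 0 with a MEIS2 region, 0 with HAND2 regions and TCF4 together, 17 HAND2 regions and 34 TCF4 summits near the members, since most end peaks rank below that limit. Counting gene starts only, 4 members had a MEIS2 replicate 1 peak, 0 a MEIS2 replicate 2 peak and 0 a MEIS2 region. Of the calls lost, those at BSN, SYT1 and SYT2 were 3′ end peaks, and SNAP25 has no listed start. The MEIS2 region at SYT2 was also lost (0 members) with 500 bp around the ends and with summits required inside the window. Leaving out a HAND2 replicate gave 8 to 13 members at an end, 8 to 13 together with TCF4, and 155 to 179 sites near the members, in each case the higher value without replicate 1. Leaving out a MEIS2 replicate gave 2 to 7 members with MEIS2 at an end. The count of members with end peaks in every library, an alternative chosen after seeing the data, was 2 without MEIS2 replicate 1 and 5 without MEIS2 replicate 2.

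No paired analysis was possible because the files are peak lists and the results are counts that come from no test. Median pile-ups differ between lists and read totals are not known. A missing peak was one not called in that list and need not be an absent factor, above all in MEIS2 replicate 2 with a median pile-up of 13. TCF4 has no replicate. Gene ends are the ends of the RefSeq span, and a start inside the span, as in SV2C, is missed. A peak near a member may lie at another gene.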
